A study of Mus musculus with 32 samples.

Results

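The accessible chromatin around 10 regulators and products of limb mesenchyme and cartilage, Prrx1, Prrx2, Twist1, Sox5, Sox6, Sox9, Runx2, Runx3, Col2a1 and Gdf5, was described across 32 ATAC-seq libraries of mouse limb buds. A summit, the single base at which a called peak is highest, belonged to a gene when it lay in the gene body or within 100 kb of it and the nearest protein-coding start was that of the gene. Of 186178 sites of 200 bp placed on the summits of the 32 libraries, 398 met this rule. When neighbouring summits were instead gathered into regions with centres more than 500 bp apart, 280 of 139748 regions did. Regions within 1 kb of a start of the gene were called promoter regions and all others distal. Each is named by its gene and its distance in kb from the nearest start of that gene, negative upstream, so Prrx1-0.89 lies 0.89 kb before a Prrx1 start.

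The study asked how the ETS factor ETV2 acts on limb bud chromatin, and ATAC-seq, in which a transposase cuts and tags open DNA, was run on 12 groups. EYFP+ cells carrying an Etv2-EYFP reporter and sorted as negative for CD31, Tie2 and CD45 came from the forelimbs (3 libraries labelled FL_GFP_pos, here E10.5 FL EYFP+) and the hindlimbs (3 labelled HL_GFP_pos, here E10.5 HL EYFP+) in 3 collections, each with a number that the labels of both limbs share. Hindlimbs of conditional knockouts (HoxB6-Cre Tg/+; Etv2 fl/-) gave posterior cells at E10.5 (E10.5 CKO, Etv2CKO_posteriorHL, 2 libraries) and at E10.25 (E10.25 CKO, Etv2cKO_E10_25, 5 libraries), beside those of wild-type hindlimbs at E10.25 (E10.25 WT, LimbWT_10_25, 2 libraries). Single libraries came from E9.5 hindlimb (HL_E9_5), from EGFP+ posterior cells of Shh-EGFP E10.5 hindlimbs (Posterior_E10_5) and from E10.5 anterior hindlimb (Anterior_E10_5). Overexpressing embryos (Etv2OE) carried ROSA26-STOP-rtTA-IRES-EGFP Tg/+ and HoxB6-Cre Tg/+ together with the inducible iHA-Etv2 Tg/+, received doxycycline and gave 3 libraries labelled A and 3 labelled P from embryos 7, 9 and 10. Littermates lacking the inducible Etv2 or the rtTA transgene gave 4 and 4 from embryos 1 to 4 (control, WT_Control). A and P were read as anterior and posterior hindlimb from the study's description. The labels give E10.5 for both of these groups, whereas the methods describe a harvest 1 day later. HoxB6-Cre is active in the whole hindlimb but only in part of the forelimb, so the knockout and the overexpression are limited to its lineage.

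Limb bud mesenchyme comes from the lateral plate and is marked by the homeobox factors PRRX1 and PRRX2 and the basic helix-loop-helix factor TWIST1. Where it condenses into cartilage, SOX9 starts the chondrocyte program and acts with SOX5 and SOX6 on matrix genes such as Col2a1, which encodes type II collagen. RUNX2 and RUNX3 drive the later maturation of cartilage and bone, and GDF5 is the signal that marks future joints.

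The sites printed here are the distal site listed in the most libraries for 6 of the genes, which show where the named values lie, and the peak just upstream of Prrx1, which is shown in place of the Prrx1 start because that start site lies in a UTR. They are the plus strand of GRCm38 (mm10) from RefSeq, 5′ to 3′, with motif matches in capitals. Prrx1-0.89 is chr1:163314495-163314694, Prrx1+74.51 is chr1:163239059-163239258, Sox9+29.08 is chr11:112811203-112811402 and Gdf5-4.15 is chr2:155949417-155949616, and all 4 lie between genes. Sox5-54.99 is chr6:144264455-144264654, Sox6+178.91 is chr7:115645700-115645899 and Col2a1+14.31 is chr15:97990242-97990441, each in an intron of its gene.
Prrx1-0.89: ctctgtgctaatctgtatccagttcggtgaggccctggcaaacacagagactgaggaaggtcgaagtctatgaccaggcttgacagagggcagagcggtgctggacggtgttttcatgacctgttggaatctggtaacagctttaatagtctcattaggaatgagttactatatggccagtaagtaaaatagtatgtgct
Prrx1+74.51: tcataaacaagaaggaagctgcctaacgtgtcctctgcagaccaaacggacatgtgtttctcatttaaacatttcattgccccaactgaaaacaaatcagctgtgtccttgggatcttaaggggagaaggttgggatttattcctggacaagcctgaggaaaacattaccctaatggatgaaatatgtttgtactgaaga
Sox5-54.99: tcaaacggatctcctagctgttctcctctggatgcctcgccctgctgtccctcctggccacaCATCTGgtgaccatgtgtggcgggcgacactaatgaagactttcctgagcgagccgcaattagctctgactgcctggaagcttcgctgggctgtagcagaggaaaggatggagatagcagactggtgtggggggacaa
Sox6+178.91: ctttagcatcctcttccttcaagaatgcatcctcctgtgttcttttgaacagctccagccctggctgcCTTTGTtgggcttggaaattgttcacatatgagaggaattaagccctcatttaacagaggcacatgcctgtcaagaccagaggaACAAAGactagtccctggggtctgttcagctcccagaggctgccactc
Sox9+29.08: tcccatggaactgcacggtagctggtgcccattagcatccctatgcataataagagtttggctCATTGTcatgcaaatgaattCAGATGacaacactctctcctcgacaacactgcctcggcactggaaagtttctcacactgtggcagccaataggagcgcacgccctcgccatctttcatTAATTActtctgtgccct
Col2a1+14.31: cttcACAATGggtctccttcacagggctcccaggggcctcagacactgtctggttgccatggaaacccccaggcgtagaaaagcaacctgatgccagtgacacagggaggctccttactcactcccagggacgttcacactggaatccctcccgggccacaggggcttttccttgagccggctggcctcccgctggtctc
Gdf5-4.15: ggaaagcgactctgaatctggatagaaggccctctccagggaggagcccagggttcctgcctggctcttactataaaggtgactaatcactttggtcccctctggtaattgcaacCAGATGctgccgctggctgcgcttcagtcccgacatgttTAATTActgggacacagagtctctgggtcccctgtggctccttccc

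Motifs were searched on both strands as AGGAAGT or AGGAAAT for ETV2, TAATTA for homeodomain factors, TGTGGT for RUNX factors, ACAAAG or ACAATG for SOX factors and CATCTG for an E-box. Each motif was searched on its own, so matches of different motifs may share bases, and a match is a description of the letters alone. The ETV2 letters stood in 12.1% of the 398 sites near the 10 genes and in 12% of all 186178 sites. Homeodomain letters stood in 11.1% against 7.75%, RUNX letters in 12.8% against 12.7%, SOX letters in 25.6% against 22.0% and the E-box in 17.6% against 17.8%. Among the printed sites, Sox6+178.91 held 2 SOX matches, Sox9+29.08 held a homeodomain, a SOX and an E-box match, Col2a1+14.31 a SOX match, Gdf5-4.15 a homeodomain and an E-box match and Sox5-54.99 an E-box. Neither Prrx1 site held any of these letters.

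The lists held 13763 to 54676 summits, and since they carry no read counts the depth behind each is unknown and no counting interval can be given. A summit that was not listed may have been missed at that depth. Each summit was therefore described by its rank in its own list, as a percent of the list length, so that a low percent is a strong peak, or by a rank score that runs from 1 for the strongest summit to 0 for a site that was not listed. The Anterior_E10_5 list (13763 summits) and replicates 2 and 4 of E10.25 CKO (15626 and 19734) were the shortest. Promoters of blood marker genes were listed for 0 to 3 of 8 genes in any library, endothelial markers for 2 to 8 of 14, muscle progenitor markers for 1 to 7 of 8 and ectoderm markers for 0 to 8 of 12, with the 8 ectoderm promoters in Posterior_E10_5 and in 1 or more E10.25 CKO libraries. Tbx5, the forelimb identity gene, had a listed promoter in only 1 of 3 E10.5 FL EYFP+ libraries and also in 1 of 3 E10.5 HL EYFP+ libraries, whereas the hindlimb gene Pitx1 was listed in 1 of 3 and 3 of 3. Distal regions of Tbx5 were listed in 3 of 3 forelimb libraries (1 to 10, median 4) and in 1 of 3 hindlimb libraries (0 to 2, median 0). Pairs of replicates shared from 30 to 89.5% of their summits, and no pair of lists was identical.

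All 10 genes had distal regions, but in very unequal number. The long genes Sox6 and Sox5 held 83 and 70 of the 257 distal regions, Runx2 21, Sox9 20, Prrx1 17, Runx3 16, Twist1 12, Col2a1 9, Prrx2 7 and Gdf5 2. Of the 280 regions, 25.7% were listed in 16 or more libraries, against 21.9% of all regions. None was listed in all 32 libraries, as 6334 regions elsewhere were, and the most for any of them was 31. In the first 10000 summits of each list, the only length all 32 lists allow, 1 to 16 distal regions of these genes and 0 to 4 promoter regions remained.

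**Figure D1:**
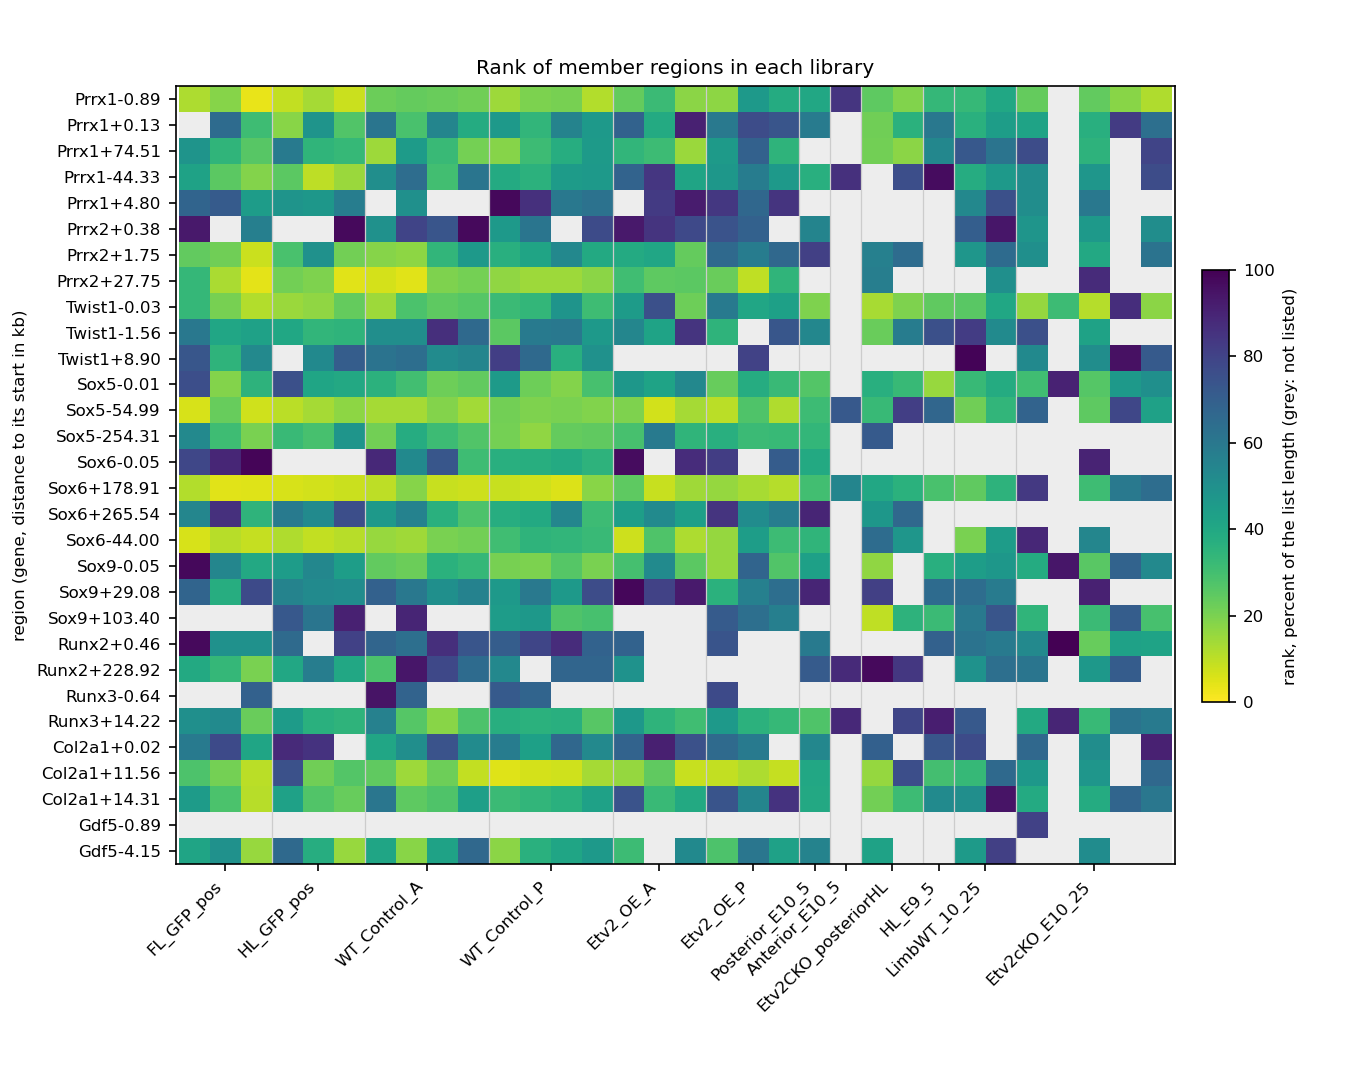
Rank of 30 regions (vertical axis) near the 10 genes in each of the 32 libraries (horizontal axis, by group), as a percent of the list length (colour scale, yellow strongest, grey not listed). Prrx1-0.89, Sox5-54.99 and Sox6+178.91 are listed in 31 of 32 libraries, whereas the Gdf5 promoter is listed in 1.

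Among the mesenchyme factors, the 5′ end of Prrx1 held a pair of peaks, and the stronger was not the one at the start. The region at the start, Prrx1+0.13, lies in a UTR and was listed in 29 libraries at 17.8 to 91.0% of the list, with a median of 46.2%. The upstream region Prrx1-0.89 was listed in 31 libraries at 3.48 to 84.5%, with a median of 21.8%. It was the better ranked in 28 of the 29 libraries that listed both, and the exception was replicate 1 of E10.5 CKO, with rank 8555 upstream against 7422 at the start. The median of the upstream peak was best in the EYFP+ cells, at 10.9%, with 12.4, 18.2 and 3.48% in E10.5 FL EYFP+ and 9.34, 13.4 and 8.08% in E10.5 HL EYFP+. In E10.25 WT it stood at 33.1 and 40.4%, in E9.5 hindlimb at 33.3% and in Posterior_E10_5 at 40.2%, so these 4 values all lay below the EYFP+ values in rank. Control A (21.8 to 23.5%), E10.5 CKO (24.8 and 19.1%) and Anterior_E10_5 (84.5%) also lay below the EYFP+ values in rank. Control P (11.4 to 20.7%), E10.25 CKO (12.1 to 24.0%) and Etv2OE (17 to 46.0%) overlapped the EYFP+ range. The share of all regions with such a separation was not counted.

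The summit of the upstream peak moved between libraries. Its position spanned 371 bp, against 249 bp for the summits at the start, and it fell on 2 neighbouring 200-bp sites whose centres are 260 bp apart. Site Prrx1-0.89, within 1 kb of the start, was listed in 21 libraries and site Prrx1-1.15, counted as distal, in 20. A change in the listing of either site can therefore be a shift of 1 summit, which is why regions are given beside sites.

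**Figure D2:**
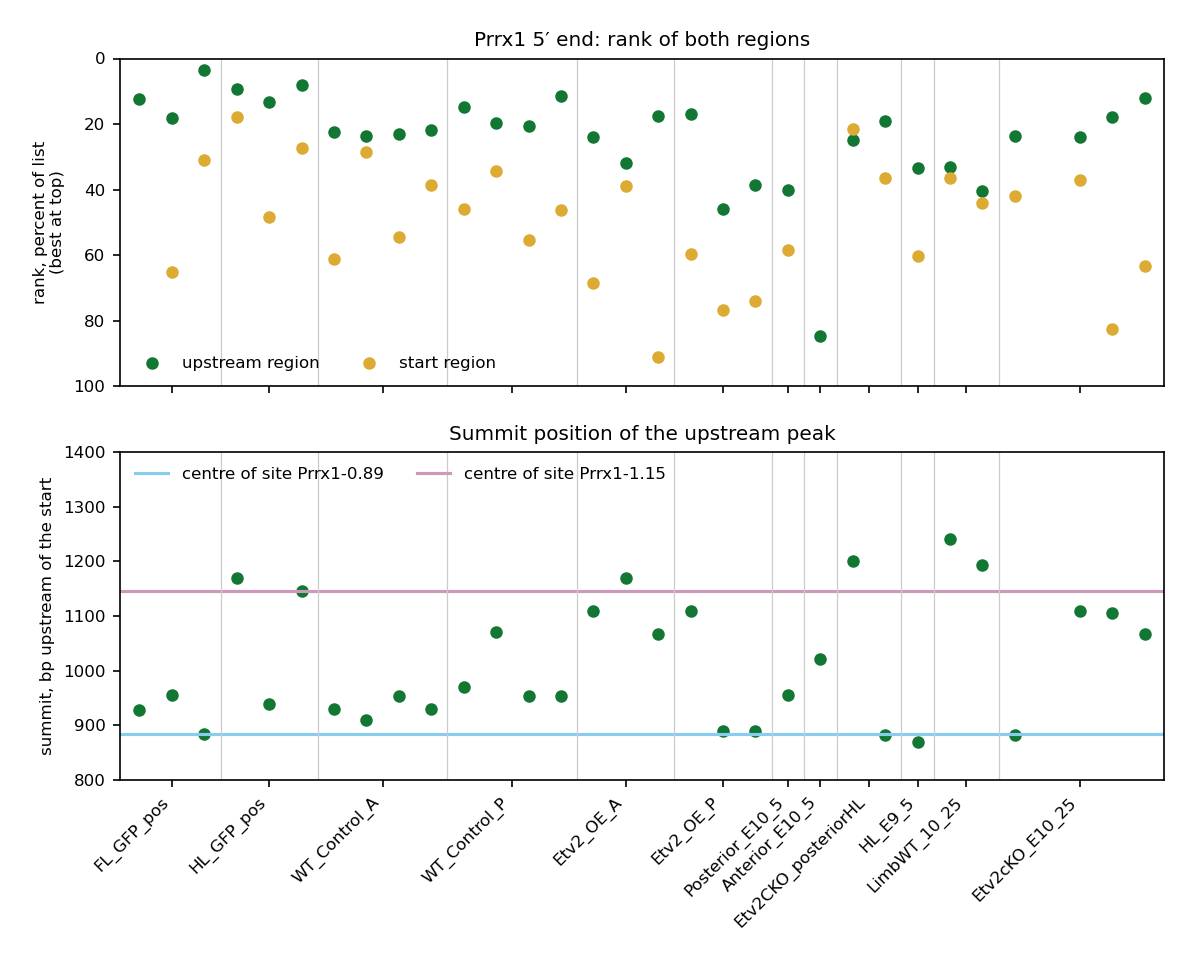
Upper panel: rank of the upstream and start regions of Prrx1 as a percent of list length in each library (stronger at the top). Lower panel: distance in bp of the upstream summit from the Prrx1 start, with lines at the centres of the 2 sites that share it; the upstream region outranks the start region in 28 of 29 libraries, and its summits spread over 371 bp.

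Of the Prrx1 distal regions, 4 of 17 were listed in 16 or more libraries. Prrx1+74.51, beyond the 3′ end of the gene, was listed in 28 libraries (14.5 to 79.5%, median 34.8%) and Prrx1-44.33 in 29 (10.1 to 96.5%, median 46.2%). The latter was strongest in E10.5 HL EYFP+ at 25.1, 10.1 and 15.1%. In the 8 control libraries it stood at 30.1 to 64.3% (median 45.6%), and these did not overlap the E10.5 HL EYFP+ values. The E10.5 FL EYFP+ libraries, at 42.5, 25.3 and 18.6%, overlapped both. The control lists held 40945 to 54676 summits and the E10.5 HL EYFP+ lists 32245 to 41281. These groups also differ in cell sorting and list processing. The share of all regions that separate them in this way was not counted.

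Prrx2, the paralog that acts with Prrx1 in limb mesenchyme, had a weak promoter and strong distal regions. Its promoter region Prrx2+0.38, in a coding exon, was listed in 21 libraries at a median of 73.6%. The intronic Prrx2+1.75 was listed in 28 at a median of 41.2%. Prrx2+27.75 was listed in all 20 EYFP+, control and Etv2OE libraries, at medians of 15.9, 15.6 and 25%, but in 2 of the 8 libraries of E9.5 and E10.25, at 87.8 and 50.1%. It was also absent from Posterior_E10_5, Anterior_E10_5 and 1 of 2 E10.5 CKO libraries, and stood at 57.1% in the other.

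Twist1, which is needed for outgrowth of the limb bud, showed the opposite order. Its promoter region Twist1-0.03 was listed in 31 libraries at a median of 25.4% and its most widely listed distal region, Twist1-1.56, in 27 at 52.0%. In the first 10000 summits the 200-bp site at the Twist1 start was kept in 15 libraries. As regions, Prrx1-0.89 was kept in 18 and Twist1-0.03 in 15.

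Sox6 and Sox5 carried distal regions that ranked high in most libraries. Sox6+178.91, an intronic region, was listed in 31 libraries at a median of 14.2% and was within the first 10000 summits in 21. It stood at 4.55 to 11.6% in EYFP+ cells and 5.26 to 18.3% in control libraries. In the 7 of 8 E9.5 and E10.25 libraries that listed it, it stood at 24.4 to 83.3%, which does not overlap the former ranges. Posterior_E10_5 (30.4%), E10.5 CKO (40.1 and 36.3%) and Anterior_E10_5 (54.6%) lay within the range of those earlier libraries, and Etv2OE (8.49 to 24.8%) touched it. The share of all regions with such a separation between stages was not counted. Sox5-54.99, in an intron of Sox5, was listed in 31 libraries at a median of 19.3%, with 5.90 to 23.1% in EYFP+ cells and 21.7 to 78.7% in the 7 of 8 libraries of E9.5 and E10.25 that listed it, which overlap at their edges.

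The promoters of the 3 genes differed. Sox5-0.01 was listed in 31 libraries at a median of 35.5% and Sox9-0.05 in 30 at 37.7%, whereas Sox6-0.05 was listed in 17 at 73.2%. The region Sox6-0.05 was absent from all 3 E10.5 HL EYFP+ lists, 2 of which listed other promoter regions of Sox6. It stood at 78.7, 89.3 and 98.6% in E10.5 FL EYFP+ and reached 31.0% in the control libraries. The most widely listed of the 20 distal regions of Sox9, Sox9+29.08, was in 26 libraries at a median of 62.0%, below the intronic regions of Sox5 and Sox6.

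Runx2, the factor needed for osteoblasts, was listed at its promoter region Runx2+0.46 in 24 libraries at a median of 67.9% and at the intronic Runx2+228.92 in 23 at 61.2%. The E10.25 CKO libraries spanned 23.1 to 99.9% at this promoter, and 4 of the 5 (52.8, 23.1, 42.6 and 41.8%) ranked above every one of the 8 control libraries (63.3 to 87.2%). Promoters of all genes made up 71.1 to 79.6% of the regions in the first 10000 summits of E10.25 CKO, against 62.5 to 66.0% in control. The groups also differ in stage, genotype and list processing. How many other promoters show this order was not counted. Runx3 had almost no promoter signal. Runx3-0.64, within an intron of the gene Gm16225, was listed in 6 libraries, 4 of them controls, while the intronic Runx3+14.22 was listed in 30 at a median of 37.2%.

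Of the cartilage products, Col2a1 had a weak promoter and strong intronic regions. Col2a1+0.02, in a UTR, was listed in 25 libraries at a median of 66.1%. Col2a1+14.31 was listed in 30 at 39.3%, and Col2a1+11.56 in 29 at 21.5%, with 4.83 to 24.3% in control, 8.39 to 24.4% in Etv2OE and 29.7 to 66.1% in the 6 of 8 libraries of E9.5 and E10.25 that listed it. The EYFP+ libraries (up to 75.1%), E10.5 CKO (15.8 and 75.9%) and Posterior_E10_5 (40.1%) reached into the last range. Gdf5 was listed at its promoter in 1 library, replicate 1 of E10.25 CKO, at 80.6%. Its upstream region Gdf5-4.15 was listed in 24 libraries at a median of 42.2%, in all 6 EYFP+ and all 8 control libraries and in 3 of 8 at E9.5 and E10.25.

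Etv2OE was compared with control to ask whether ETV2 alters the chromatin of these genes, with Prrx1 taken first. Prrx1 was listed at both promoter regions in every one of the 14 libraries. Distal Prrx1 sites among the first 30000 summits numbered 4 and 5 (A and P of embryo 7), 9 and 7 (embryo 9) and 4 and 6 (embryo 10) in Etv2OE. In control they numbered 3 and 4, 4 and 7, 3 and 3, and 2 and 8 in embryos 1 to 4. The groups overlapped, at 5.83 ± 1.89 (SD, n = 3 embryos) against 4.25 ± 1.19 (SD, n = 4 embryos).

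The difference of 1.58 sites had a two-sided exact permutation p of 0.343, where 0.0571 is the smallest these numbers of embryos allow, so the design cannot reach 0.05. The sign of the difference depended on list length: with the whole lists, which are shorter in Etv2OE (median 38070.5 summits against 48513.5), it was -1.04 (exact p = 0.343), and with whole lists at a −log10 q of at least 5 it was -1.5 (exact p = 0.114). With regions in place of sites it was 1.08 (exact p = 0.514). In the A libraries alone the difference was 2.67 (exact p = 0.171) and in the P libraries alone 0.500 (exact p = 0.914). Within embryos, P exceeded A by 0.333 sites in Etv2OE and by 2.50 in control, a difference of -2.17 (exact p = 0.40).

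**Figure D3:**
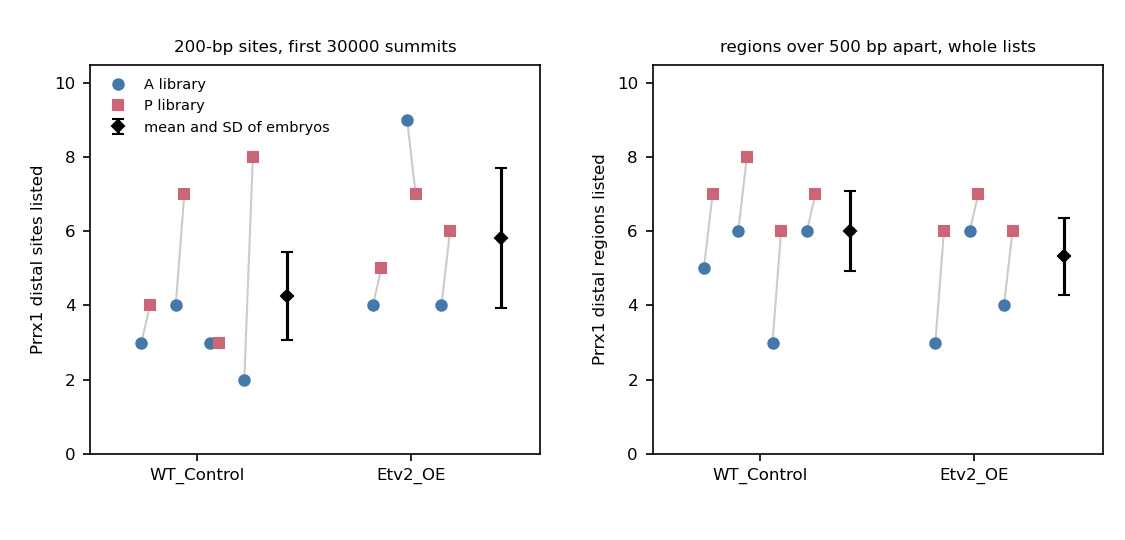
Number of distal Prrx1 sites in the first 30000 summits (left) and of distal Prrx1 regions in the whole lists (right), for the A and P libraries of each embryo (joined points), with the mean and SD over embryos (diamonds and bars). Control and Etv2OE embryos overlap in both panels, and the left means are 4.25 and 5.83.

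At the Prrx1 5′ end no difference between Etv2OE and control passed the test. The upstream peak had rank 6645 to 17533 in Etv2OE lists and 6181 to 11328 in control lists, and percents are of Etv2OE lists that are shorter. The upstream region stood at 17 to 46.0% (median 27.8%) in the 6 Etv2OE libraries and at 11.4 to 23.5% (median 21.2%) in the 8 control libraries, and the ranges overlapped. The start region stood at 38.8 to 91.0% (median 71.1%) against 28.6 to 61.2% (median 46.0%). In lists of 30000 summits, the rank score of the upstream region was 0.631 ± 0.0925 against 0.688 ± 0.0429 (adjusted p = 0.845, limma on all regions, n = 3 and 4 embryos), and that of the start region 0.145 ± 0.142 against 0.268 ± 0.175 (adjusted p = 0.849). As 200-bp sites the same peak looked different, since site Prrx1-0.89 was listed in 3 of 6 Etv2OE and 8 of 8 control libraries while its region was listed in all 14.

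None of the 137 sites near the 10 genes that could be tested passed an adjusted p of 0.05 in limma (0 higher in Etv2OE and 0 lower). Over all 59756 sites, 0% were called higher and 0.00335% lower. At an unadjusted p under 0.05 there were 3 of the 137 higher and 3 lower, and no other tool was run. The share of all sites, regions or genes at an unadjusted p under 0.05 was not counted, here or in later comparisons. Of the 10 genes, 0 passed on the sum of their distal rank scores in either direction, where 0% of 9545 genes did, with 0 at an unadjusted p under 0.05. No site was listed in all Etv2OE and no control libraries (0.00167% of all sites) or the reverse (0.00502%). As regions, 0 of 109 passed in either direction (0% of 47256 regions each way, with 4 higher and 2 lower at an unadjusted p under 0.05), and none was listed in all of 1 group and none of the other (0% and 0.00423%).

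The regions with the smallest p illustrate the size of the differences. Sox5-54.99 scored 0.808 ± 0.0269 in Etv2OE and 0.716 ± 0.0261 in control (adjusted p = 0.816). The promoter region Sox6-0.05 scored 0.0145 ± 0.0250 and 0.269 ± 0.137 and was listed in 1 of 6 and 6 of 8 libraries in lists of equal length (adjusted p = 0.816). Whole lists held that promoter region in 2 of 3 A and 2 of 3 P libraries of Etv2OE. In control they held it in 4 of 4 A and 4 of 4 P libraries. Twist1+8.90 was listed in 0 of 6 and 6 of 8 libraries in lists of equal length and in 1 of 6 and 8 of 8 in whole lists (adjusted p = 0.816). The promoter region Runx2+0.46 was listed in 2 of 6 against 8 of 8 in whole lists but in 1 of 6 against 2 of 8 in lists of equal length, so the difference was smaller in lists of equal length.

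Among lists of related genes, 0 of 28 other mesenchyme and skeletal regulators and 0 of 15 cartilage matrix and joint genes that could be tested passed in Etv2OE against control. The median difference in distal rank score was -0.0264 for the 10 genes, 0.00223 for the other regulators and -0.0380 for the matrix genes, against 0.00294 over all genes.

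E10.5 HL EYFP+ cells, in which the Etv2 reporter is on, were compared with posterior hindlimb cells of E10.5 CKO, in which Etv2 is deleted by HoxB6-Cre. The distal regions Prrx1-44.33, Prrx2+27.75 and Sox6-44.00 scored higher in the EYFP+ cells and Sox9+103.40 and Sox6+413.80 higher in the knockout, but none of these differences passed the test. Sorted hindlimb cells of 1 reporter line are set against unsorted posterior tissue of another genotype here, so cell sorting, dissection and genotype cannot be told apart. In such bulk libraries, fewer cells with an open site and a less open site in each cell cannot be told apart either.

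Prrx1-44.33 stood at 25.1, 10.1 and 15.1% in E10.5 HL EYFP+ and was listed in 1 of the 2 E10.5 CKO libraries, at 75.9%. In lists of 25000 summits its score was 0.768 ± 0.0815 against 0.0694 ± 0.0981 (adjusted p = 0.102 in limma). Prrx2+27.75 scored 0.782 ± 0.137 against 0.106 ± 0.150 (adjusted p = 0.107). Each of these 2 regions was listed in 1 of the 2 E10.5 CKO libraries, so their separation by rank rests on 1 value there. Both were picked after their values were seen, and the share of all regions that separate the groups in this way was not counted. Sox6+178.91 scored 0.900 ± 0.0182 against 0.518 ± 0.10 (adjusted p = 0.101) and Sox6-44.00 scored 0.848 ± 0.00224 against 0.285 ± 0.249 (adjusted p = 0.111). In the other direction, Sox9+103.40 stood at 72.6, 61.3 and 91.0% against 9.52 and 35.5% and scored 0.0210 ± 0.0364 against 0.733 ± 0.192 (adjusted p = 0.102).

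Of 65 sites tested, 0 passed an adjusted p of 0.05 in limma in either direction, as did 0% of all 35005 sites. At an unadjusted p under 0.05, 9 were higher in the EYFP+ cells and 5 lower. The share of all sites at that unadjusted p was not counted, so these 2 counts cannot be set against a background. Within the first 25000 summits, 6 of the 65 were listed in all EYFP+ and no knockout libraries, where 5.74% of all sites were, and 4 in the reverse pattern, where 7.78% were. As regions these were 4 of 57 (6.04% of all regions), namely Prrx1+4.80, Runx3-70.55, Sox5-103.16 and Sox9+29.08, and 5 of 57 (8.07%), namely Prrx1-43.09, Twist1+8.16, Sox6+413.80, Sox6+74.12 and Sox6-14.68. These shares lie near the background, with 3 versus 2 libraries. In whole lists Sox6+413.80 was listed in 3 of 3 EYFP+ libraries, Prrx1-43.09 in 2, Sox6+74.12 and Twist1+8.16 in 1 each, and Sox9+29.08 in 1 of 2 knockout libraries. Of the 10 genes 0 passed in the gene fit (0% of 6933 genes), with 1 higher at an unadjusted p under 0.05, which was Runx3, at a distal score of 1.5 ± 0.503 against 0.325 ± 0.431 (adjusted p = 0.229). None of 26 other regulators and none of 12 cartilage matrix and joint genes passed.

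Between wild-type and knockout hindlimbs at E10.25 no difference at these genes passed the test in lists of 15000 summits, which does not show that the sites were alike. The upstream Prrx1 peak stood at 33.1 and 40.4% in E10.25 WT and at 23.6, 24.0, 17.9 and 12.1% in the 4 of 5 E10.25 CKO libraries that listed it, so the groups did not overlap among libraries with the peak. The share of all regions that separate these groups in this way was not counted. In lists of 15000 summits the rank score of the upstream peak was 0.0608 ± 0.0329 against 0.465 ± 0.322 (adjusted p = 0.460, limma on all regions, n = 2 and 5). Sox5-90.01 scored 0.0550 ± 0.0551 against 0.412 ± 0.151 (adjusted p = 0.293).

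Only 30 sites of these genes could be tested at this length, and 0 passed in either direction, against 1.99% of all 24300 sites higher in E10.25 WT and 0.181% lower. At an unadjusted p under 0.05 there was 1 higher and 0 lower. The gene fit called 0 of 7 genes in either direction, where 4.70% of 4235 genes were higher and 0.260% lower, with 0 at an unadjusted p under 0.05. No site was listed in all of 1 group and none of the other (3.32% and 1.06% of all sites). As regions, 0 of 21 passed (2.43% of all regions were higher and 0.319% lower), with 0 higher and 1 lower at an unadjusted p under 0.05, and 0 were listed in all of 1 group and none of the other (3.49% and 1.35%). With whole lists, which are longer in E10.25 WT (median 38808.5 summits against 30146), 7 sites passed, all higher in E10.25 WT, where 4.37% of all sites passed. The 30 sites are not the base of these 7, since whole lists allow more sites, whose number is not given here. Neighbouring sites can share a summit. Of the 7, Sox5-271.56 and Sox5-271.82 both scored 0.313 against 0, and Sox6+134.59 and Sox6+134.38 both scored 0.510 in E10.25 WT. Sox9+29.08 was listed in 2 of 2 against 1 of 5 libraries (adjusted p = 0.0256) and Sox9+88.16 in 2 of 2 against 0 of 5 (adjusted p = 0.0175), while the part of list length in these calls was not tested. Of the other lists, 0 of 18 regulators and 0 of 8 matrix genes passed, and the hindlimb gene Isl1 was higher in E10.25 WT (1.20 ± 0.532 against 0.147 ± 0.161, adjusted p = 0.0434). This call was lost without E10.25 CKO replicate 1 and with replicate number as a block, where 0% of genes were called.

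Between the EYFP+ cells of hindlimb and forelimb no difference at these genes passed the test, an unpaired fit that with 3 libraries a side called no site anywhere. Of the 10 genes, Prrx1 had the smallest p for its distal rank score, which was higher in hindlimb, at 3.22 ± 1.05 against 1.65 ± 0.187 (adjusted p = 0.906 in the gene fit, n = 3 libraries each). With regions, where the whole upstream peak counts as promoter, it was 2.13 ± 0.377 against 1.35 ± 0.315 (adjusted p = 0.977 in the gene fit). Of 98 sites, 0 passed in limma in either direction, as did 0% of 45599 sites, with 2 higher in hindlimb and 2 lower at an unadjusted p under 0.05. Of the 10 genes 0 passed, where 0% of 8337 did, with 1 higher at an unadjusted p under 0.05.

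In presence within the first 30000 summits, 3 of 98 sites were listed in all hindlimb and no forelimb libraries (1.27% of all sites) and 1 in the reverse pattern (1.33%). As regions the former were Sox5-271.82, Sox6+157.59 and Twist1+10.01 (1.39% of all regions) and the latter was Sox5-92.42 (1.31%). Sox6+157.59 scored 0.302 ± 0.142 against 0 in every forelimb list of that length (adjusted p = 0.846), and Sox5-92.42 scored 0 in every hindlimb list of that length against 0.364 ± 0.125 (adjusted p = 0.846). Whole lists removed these patterns, since Sox6+157.59 was then listed in 3 of 3 forelimb libraries, Twist1+10.01 in 2, Sox5-271.82 in 1 and Sox5-92.42 in 1 hindlimb library. None of 28 other regulators and none of 14 cartilage matrix and joint genes passed.

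Between anterior and posterior control hindlimbs the smallest p-values belonged to regions of Sox5, Sox6 and Sox9, and none passed the threshold. Sox6-44.00 stood at 15.6, 14.3, 20.3 and 21.1% in the A libraries of embryos 1 to 4 and at 30.8, 35.0, 34.2 and 32.4% in their P libraries. Its score in lists of 40000 summits was 0.805 ± 0.0445 against 0.561 ± 0.0271 (adjusted p = 0.0601, limma on all regions, n = 4 libraries each). The fits of A against P given here left out that both come from the same 4 embryos, except where a block is named. At Sox6-44.00 the Etv2OE embryos, which did not enter this comparison, had 7.75, 27.5 and 12.4% in A and 15.8, 44.3 and 31.4% in P, so A was the stronger in each of them. The region was singled out by its control values, and the Etv2OE values are a description. How many regions elsewhere show the same order was not counted.

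Sox9+103.40, between genes at chr11:112885524-112885723, went the other way. It stood at 44.8, 46.8, 27.4 and 29.1% in the 4 control P libraries and was listed in 1 of 4 A libraries, at 89.7%, with scores of 0.511 ± 0.121 against 0.00853 ± 0.0171 (adjusted p = 0.0713). In Etv2OE it was listed in 3 of 3 P libraries, at 71.2, 63.6 and 56.8%, and in 0 of 3 A libraries. Over the other groups it was listed in 3 of 3 E10.5 HL EYFP+, 0 of 3 E10.5 FL EYFP+, 2 of 2 E10.5 CKO, 4 of 5 E10.25 CKO, 2 of 2 E10.25 WT and the E9.5 hindlimb library. It was not listed in Posterior_E10_5 or Anterior_E10_5. The region was singled out after its values were seen, and its A and P libraries in Etv2OE are a description. Sox5-103.16 was higher in A, at 0.758 ± 0.0829 against 0.372 ± 0.127 (adjusted p = 0.0780).

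Of 158 sites, 0 passed in limma in either direction, as did 0% of 66649 sites, with 10 higher in A and 9 lower at an unadjusted p under 0.05. The share of all sites at that unadjusted p was not counted. As regions 0 of 126 passed, where 0.0885% of 54217 regions were higher and 0.127% lower, with 10 higher and 10 lower at an unadjusted p under 0.05. Within the first 40000 summits, 1 site was listed in all A and no P libraries (0.941% of all sites) and 2 in the reverse pattern (1.12%). As regions these were 0 (1.19%) and 2 (1.34%), namely Sox6-14.13 and Twist1+45.12, which whole lists held in 1 and 2 of the 4 A libraries.

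At the gene level Prrx1 had the smallest p of the 10 genes, with a distal rank score of 2.07 ± 0.346 in A and 3.16 ± 0.413 in P (difference -1.09 ± 0.273 SE, adjusted p = 0.0981). None of the 10 genes passed, where 0.523% of 10316 genes were higher in A and 0.872% lower, and at an unadjusted p under 0.05 there was 1 of the 10 higher (Sox6) and 1 lower (Prrx1). With regions the Prrx1 difference was -0.299 (adjusted p = 0.574), where both sites of the upstream peak form 1 promoter region. With whole lists, which are longer in P (median 53182 summits against 43701.5), Prrx1 passed as a sum of sites (-2.32, adjusted p = 0.00711, where 7.87% of genes passed) and as a sum of regions (-1.11, adjusted p = 0.0222). Of the related lists, 1 of 28 other regulators passed, Alx1, an anterior mesenchyme factor, which was higher in A (1.17 ± 0.176 against 0.494 ± 0.0711, adjusted p = 0.0409), and 0 of 16 matrix genes did. With embryo as a block 0% of genes were called, so the Alx1 call was lost.

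Across stages, 2 regions were listed in every EYFP+, control and Etv2OE library and in no E9.5 or E10.25 library. These were Sox5-254.31, at chr6:144463773-144463972 in a Sox5 intron, and Sox6+265.54, at chr7:115559075-115559274 in a Sox6 intron. They are printed with Sox9+103.40 because the comparisons between A and P and across stages turn on them. Sox6+265.54 held 2 homeodomain matches and an ETV2 match, and the other 2 held none of the letters searched.
Sox9+103.40: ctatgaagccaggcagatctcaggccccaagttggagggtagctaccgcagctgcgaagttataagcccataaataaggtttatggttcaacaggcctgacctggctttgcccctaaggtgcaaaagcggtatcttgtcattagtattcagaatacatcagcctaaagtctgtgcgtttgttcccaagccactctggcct
Sox5-254.31: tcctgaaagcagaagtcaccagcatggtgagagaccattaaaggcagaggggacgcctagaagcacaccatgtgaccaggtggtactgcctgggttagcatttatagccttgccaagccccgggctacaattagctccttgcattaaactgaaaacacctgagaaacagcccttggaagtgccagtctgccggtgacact
Sox6+265.54: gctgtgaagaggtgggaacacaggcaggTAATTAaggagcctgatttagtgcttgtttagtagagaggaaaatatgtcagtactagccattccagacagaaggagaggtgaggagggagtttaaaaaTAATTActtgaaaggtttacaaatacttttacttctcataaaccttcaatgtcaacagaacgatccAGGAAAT

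Sox5-254.31 stood at 20.0 to 52.8% (median 31.6%) in EYFP+, 16.6 to 38.2% (24.2%) in control and 29.2 to 58.8% (33.6%) in Etv2OE libraries. It was also listed in Posterior_E10_5 (33.6%) and in 1 of 2 E10.5 CKO libraries (71.6%), but not in Anterior_E10_5. Sox6+265.54 stood at 35.1 to 86.1% (median 56.5%), 28.0 to 55.8% (38.5%) and 43.5 to 84.8% (51.7%) in the same groups, and at 47.2 and 66.4% in E10.5 CKO. The pattern was noticed in the data and is a description: 2 of 199 regions of these genes showed it, against 0.204% of all 97196 regions, and 0 showed the reverse, against 0.00412%.

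In the first 25000 summits, which 6 of the 8 earlier lists reach, Sox5-254.31 alone kept the pattern (0.238% of all regions). Of the 14 control and Etv2OE libraries alone, 8 of 188 regions were listed in all and in no earlier library (1.20% of all regions), and they belonged to Sox5, Sox6, Sox9 and Runx2. The earlier libraries also differed genome-wide, with 70.3 to 79.6% of the regions in their first 10000 summits at promoters, against 56.1 to 66.0% in the EYFP+, control and Etv2OE libraries and 73.4% in Posterior_E10_5, and the part of this in the result was not tested. Stage, cell sorting, dissection and the processing of the lists cannot be told apart here.

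**Figure D4:**
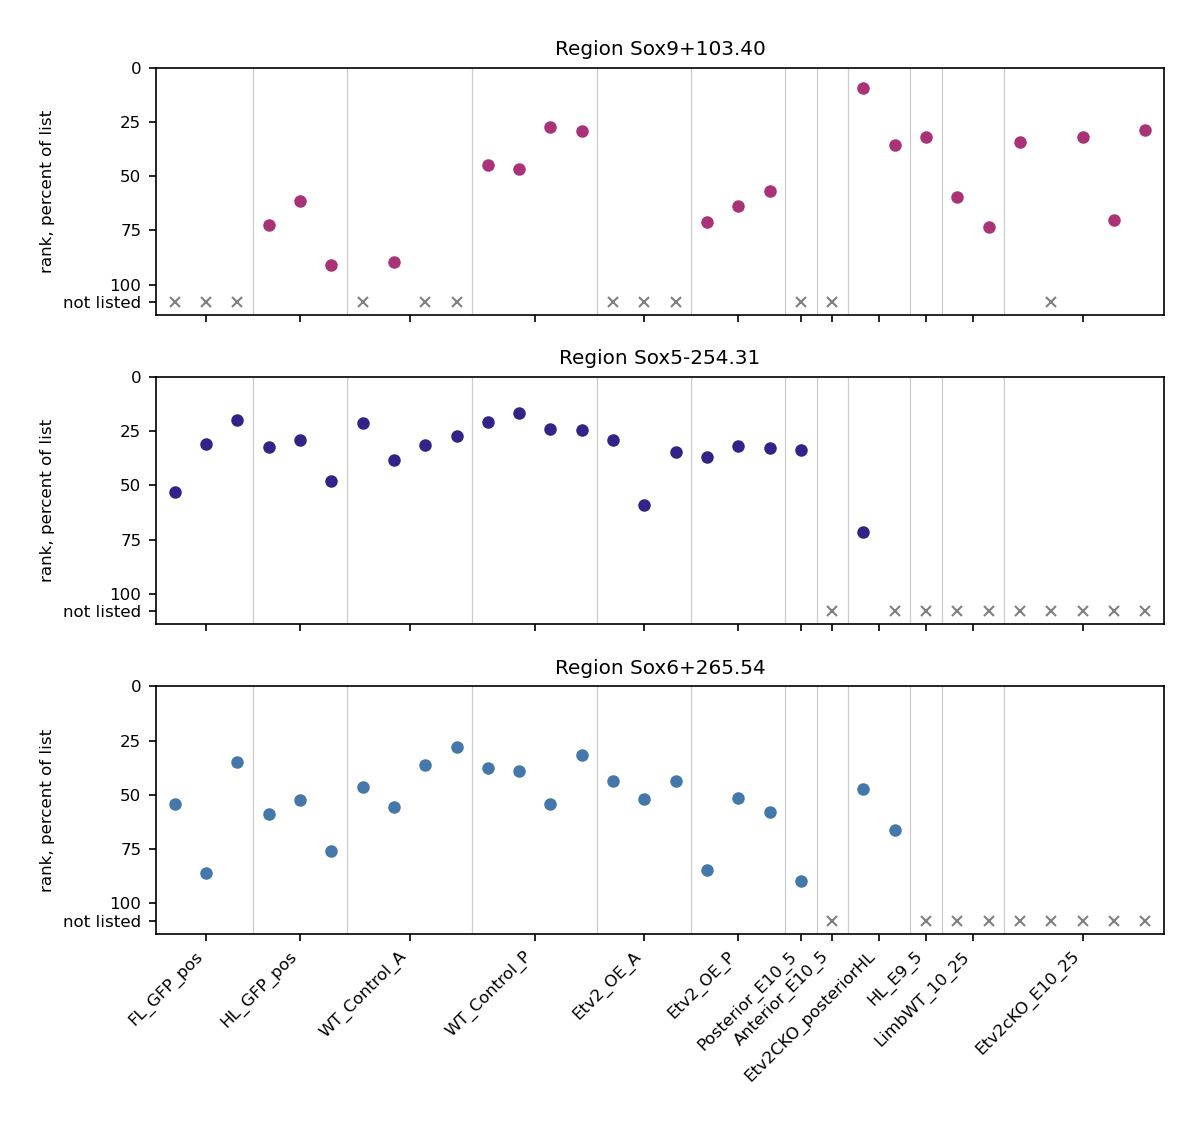
Rank as a percent of list length (vertical axis, strongest at the top, crosses not listed) of Sox9+103.40, Sox5-254.31 and Sox6+265.54 in each library, by group. Sox9+103.40 is listed in all 4 control P and 3 Etv2OE P libraries and in 1 A library, and the other 2 regions in none of the 8 libraries of E9.5 and E10.25.

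Over the 10 genes together, whole lists held 8 to 120 distal and 3 to 14 promoter regions, and the longest lists held the most. The control P libraries, with the longest lists, held the most distal regions, at 106, 105, 120 and 113, and the Etv2OE A libraries held 79, 60 and 79. Per 1000 distal regions of the same library, the 10 genes took 2.78 to 2.97 in control P, 2.74 to 3.52 in control A, 2.83 to 3.25 in Etv2OE and 1.24 to 2.56 at E9.5 and E10.25. The last range lay below those of control and Etv2OE but overlapped that of the EYFP+ cells, at 2.14 to 3.62. Among the other E10.5 libraries, Posterior_E10_5 (2.04) lay within the range of E9.5 and E10.25. Anterior_E10_5 (2.57) and E10.5 CKO (2.80 and 2.77) lay just above it.

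**Figure D5:**
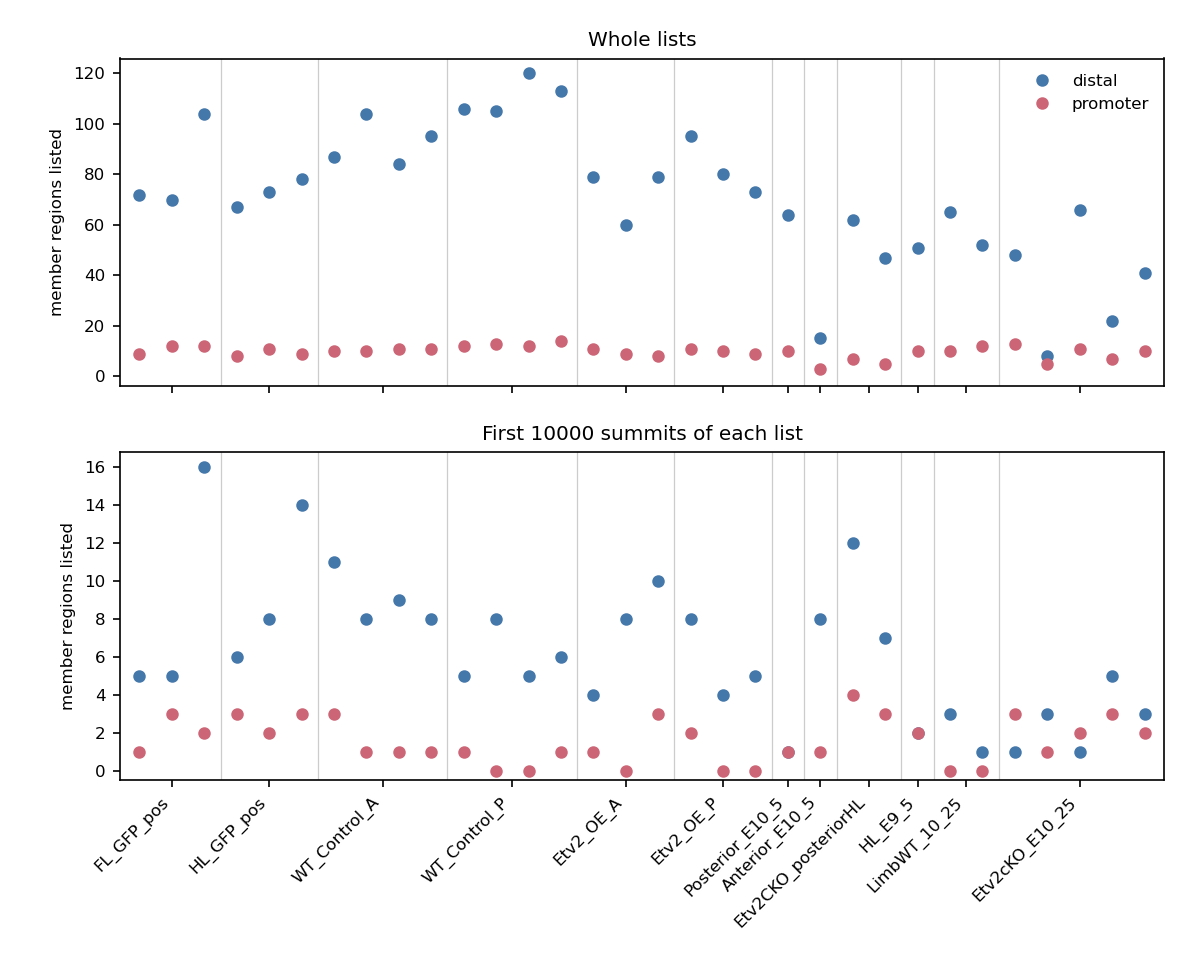
Number of distal and promoter regions of the 10 genes listed in each library (points, by group), for whole lists (upper) and for the first 10000 summits (lower). Whole lists hold 8 to 120 distal regions, and 1 to 16 remain in the first 10000 summits.

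The pattern of Prrx1 over the 12 groups, taken as the mean distal rank score per group, was most like that of Ptx3, Lmf1 and Bend4 among 4923 genes, with Spearman's rho of 0.913, 0.896 and 0.891 over the 12 groups. Among the other 9 genes, Sox9 came nearest with sites, at 0.607, and Sox5 with regions in place of sites, at 0.746. The groups differ in list composition, which these values share, and they are given without a test.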

How the data were processed

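Limb bud cells of 12 groups were profiled by ATAC-seq in 32 libraries. The authors aligned reads to mm10 with Bowtie2 2.2.4, discarded reads that mapped to several places, took out duplicates (Picard), moved read starts to the cut site and called peaks with MACS2, whose settings are unknown here. Their deposited lists hold 1 summit per line with the −log10 of its q-value (lowest 1.30), called per library. The name tag for deduplication is present in 18 lists and not in the 14 control and Etv2OE lists, and no test crosses the 2 sets. No counts are held, so depth is unknown and p-values measure only the spread between these samples. No source read here says whether knockout and E10.25 libraries came from separate embryos.

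Values were used only as ranks. Sites of 200 bp were placed on summits by rank, and a library listed a site with a summit within 200 bp of its centre. The rank score fell in equal steps from 1 for the top summit to 1 divided by the list length for the last. Lists were shortened to the largest multiple of 5000 that a comparison allowed. Genes came from GENCODE vM21, sequence from RefSeq GRCm38. limma 3.58.1 (trend) in R 4.3.3 was fitted to all sites listed in at least 2 libraries and to the sum of distal scores of every gene, with Benjamini-Hochberg adjustment at 0.05. Libraries A and P of an embryo were averaged for Etv2OE against control. Counts of Prrx1 sites were compared by exact permutation over embryos (scipy 1.17.1). The limma step was tested on simulated data and made 0 false calls. Of 100 larger shifts in rank score (means 0.808 to 0.868), it recovered 96 in Etv2OE against control. It recovered 87 in E10.5 HL EYFP+ against CKO and 85 in control A against P. In E10.25 WT against CKO and in hindlimb against forelimb EYFP+ it recovered 0. Of 100 smaller shifts (0.249 to 0.325) it recovered 0 to 3, so a site that did not pass may still differ. The simulation drew noise for each library on its own, with no link between A and P of an embryo. It also did not match the E10.25 data, where the real fit called 1.99% of sites higher in E10.25 WT. The recovered and false calls therefore do not measure the power or error of the real fits.

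The sites named were, for each gene, the promoter and distal site in the most libraries, those past the adjusted threshold and those listed in all of 1 side and none of the other, up to 5. Regions with the smallest p, Sox9+103.40, Sox5-254.31, Sox6+265.54 and other regions named for comparison were chosen after their values were seen. Genes, lists and tests were chosen with earlier results of these data known. Alternatives were an equal length 0.5 times as long, whole lists, a −log10 q of at least 5, a summit within 100 bp, a reach of 50 kb, a replicate block and each library left out. Regions more than 500 bp apart were added after seeing the data. The main fits of hindlimb against forelimb EYFP+ and of control A against P were unpaired, and pairing entered only as the replicate block. Forelimb and hindlimb libraries share a collection number in their descriptions (r of deviations 0.186, 0.184 and 0.421). Control A and P libraries share an embryo (0.00381 to 0.0470).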

Additional observations from a re-analysis of the deposited data

Results flagged for a closer look

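In 7 of 78 groups of 4 to 10 libraries 1 library stood apart from the rest by Dixon's criterion, where chance gives about 1 in 20. The promoter regions among the first 10000 summits numbered 3 in control A replicate 1 against 1 in each of the other 3 libraries. Twist1-0.03 stood at 48.4% of the list in control P replicate 3 against 31.2 to 33.9%, and at 87.0% in E10.25 CKO replicate 4 against 11.2 to 31.5%. Sox5-54.99 stood at 18.7% in control A replicate 3 against 13.4 to 13.9%. Sox9-0.05 stood at 26.2% in control P replicate 3 against 19.9 to 20.4%. Sox9+103.40 stood at 70.4% in E10.25 CKO replicate 4 against 29.0 to 34.5%. Runx3+14.22 stood at 26.0% in control P replicate 4 against 36.3 to 37.2%. E10.25 CKO replicate 4, which appears for both Twist1 and Sox9, has a list of 19734 summits.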

How the results depend on the processing

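Of 163 alternatives over 13 results, 153 were graded the same. For limma and listing counts this grade compares only how many were called or listed, not the direction of differences. For the Prrx1 count it compares the sign and the side of the threshold. In Etv2OE against control with whole lists, the distal score difference of Prrx1 turned from 0.397 to -0.686 and that of Sox6 from 0.49 to -4.36. Runx3 turned from 0.0908 to -1.07, and Sox9 stayed negative (-0.209 and -0.957). Of the 140 alternatives for the limma counts, 135 called no site, region or gene of the 10 genes. The other 5 used whole lists: in E10.25 WT against CKO 7 sites, or 6 as regions (4.89% of all regions), and in control A against P 1 region (Sox9+103.40, difference -0.604 ± 0.113 SE, adjusted p = 0.0420, 1.03% of all regions), 1 gene by sites (Prrx1) and 2 genes by regions (Prrx1 and Sox5, 11.5% of all genes), where Sox5 turned from 0.313 in lists of equal length to -3.04. List lengths differ between these groups, and the cause was not tested. The Prrx1 count in Etv2OE against control reversed with whole lists (-1.04) and with a −log10 q of at least 5 (-1.5), and ran from 0.500, without embryo 9, to 2.25, without embryo 7. Sites listed in 16 or more libraries numbered 10 promoter and 59 distal. They fell to 6 and 35 with a summit within 100 bp, and distal ones to 36 at a −log10 q of at least 5. With the replicate block 0 sites and 0 genes of the 10 passed in each comparison, as without it, and leaving out each library gave 0 as well. Over all genes the block lowered the share called from 1.40 to 0% in control A against P and from 4.96 to 0% in E10.25 WT against CKO, where a number pairs nothing, so Alx1 and Isl1 were lost. Depth is unknown, so absence from a list is not absence of a peak, and ranks from lists of unequal depth are not on 1 scale.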
